A study of Mus musculus with 8 samples.

Results

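The 9 genes described here, *Oat*, *Aldh18a1*, *Pycr1*, *Prodh*, *Arg2*, *Odc1*, *Srm*, *Sms* and *Sat1*, encode enzymes of proline and polyamine metabolism, and each was found as 1 row among the 54281 genes of the deposited tables. They were chosen from earlier values of Tet1 knockout (KO) against wild-type (WT) cells, so KO and WT values of these genes are given below as a description, with no p-value, and nothing is read from whether they pass a test of that comparison. RNA was measured in epiblast-like cells (EpiLCs), a formative pluripotent state reached from mouse embryonic stem cells (ESCs), with 1 poly(A) RNA library from each of 4 Tet1 KO lines (named KO1, KO9, KO15 and KO25) and from each of 4 WT lines (named WT7, WT12, WT17 and WT34). TET1 is a dioxygenase that oxidizes 5-methylcytosine, and the question of this comparison is what its absence changes in gene expression.

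All lines were male and came from (B6 × 129S6)F1-Tet1tm1Koh blastocysts. They carried either the Tet1tm1Koh knockout (KO) or wild-type *Tet1* (WT), and the same culture protocol is given for all. ESCs had been kept on feeder fibroblasts (MEFs), were adapted to feeder-free 2iL medium on gelatin, and were then grown for 2 days in N2B27 with 1% knockout serum replacement and 12 ng/mL bFGF, without Activin A. The libraries titled WT12 and WT17 carry other WT line names in a second label, and the titles were used. Column names of the tables end in b2 (KO15, KO25, WT12 and WT34) or b1 (KO1, KO9, WT7 and WT17), a suffix that the sources do not explain. Each suffix holds 2 KO and 2 WT lines, so genotype and suffix can be told apart.

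Total estimated counts per library ran from 13916576 to 23680839. *Tet1* itself had 38.4 to 54.2 CPM (counts scaled to library size) in KO lines, against 559 to 851 CPM in WT lines. The summed level of 6 EpiLC markers was 771 to 837 TPM (transcript abundance per length and library size) in KO lines and 705 to 872 TPM in WT lines. Summed levels of 5 naive ESC markers were 22.2 to 24.8 TPM in KO lines and 12.3 to 29.7 TPM in WT lines, and those of 9 extraembryonic endoderm markers were 1.86 to 4.15 TPM in KO lines and 2.36 to 4.65 TPM in WT lines, with *Ttr* at 0 in every library. Summed levels of 7 feeder fibroblast markers were 11.0 to 29.9 TPM in KO lines and 5.45 to 20.3 TPM in WT lines, with *Postn* at 0 in every library. As these are bulk libraries, fewer cells of a type and less RNA per cell cannot be told apart.

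Proline and the polyamines share precursors. Glutamate is turned by ALDH18A1 into an intermediate, pyrroline-5-carboxylate, which PYCR1 reduces to proline in mitochondria and PRODH regenerates by oxidizing proline. OAT, ornithine aminotransferase, joins this intermediate to ornithine, which the arginases (ARG2 in mitochondria) release from arginine. ODC1 decarboxylates ornithine to putrescine, the rate-limiting step of polyamine synthesis, SRM and SMS extend putrescine to spermidine and spermine, and SAT1 acetylates the polyamines for export or breakdown. Mouse ESCs take up or make proline and keep high polyamine levels, and both have been tied to their growth and state.

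TPM divides by transcript length and so allows genes to be set against each other. Over the 8 lines *Odc1* had the highest mean level of the 9 genes (460.6 ± 42.8 TPM; SD, n = 8 lines), followed by *Srm* (122 ± 19.0 TPM), *Sms* (117 ± 14.3 TPM), *Aldh18a1* (46.9 ± 8.23 TPM), *Oat* (22.9 ± 4.40 TPM), *Pycr1* (22.3 ± 6.38 TPM), *Sat1* (9.04 ± 2.53 TPM), *Prodh* (5.65 ± 0.58 TPM) and *Arg2* (0.168 ± 0.109 TPM). *Odc1* alone made up 53.3% to 62.0% of the summed TPM of the 9 genes in each line. The ranges of *Odc1* and *Srm*, of *Sms* and *Aldh18a1*, of *Aldh18a1* and *Oat* and of *Prodh* and *Arg2* did not overlap over the 8 lines. The other 4 neighbours in this order overlapped. *Srm* was above *Sms* in 4 of 8 lines, and *Oat* was above *Pycr1* in 5 of 8 lines, a pair that changes places when ordered by the median. *Pycr1* was above *Sat1* within each of the 8 lines, although its lowest level (12.4 TPM, in KO15) and the highest of *Sat1* (12.5 TPM, in KO9) crossed. *Sat1* was above *Prodh* in 7 of 8 lines. Relative to its mean, *Odc1* varied least between lines (coefficient of variation 9.28%), *Pycr1* and *Sat1* varied by 28.6% and 28.0%, and *Arg2* varied most (64.7%).

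**Figure D1:**
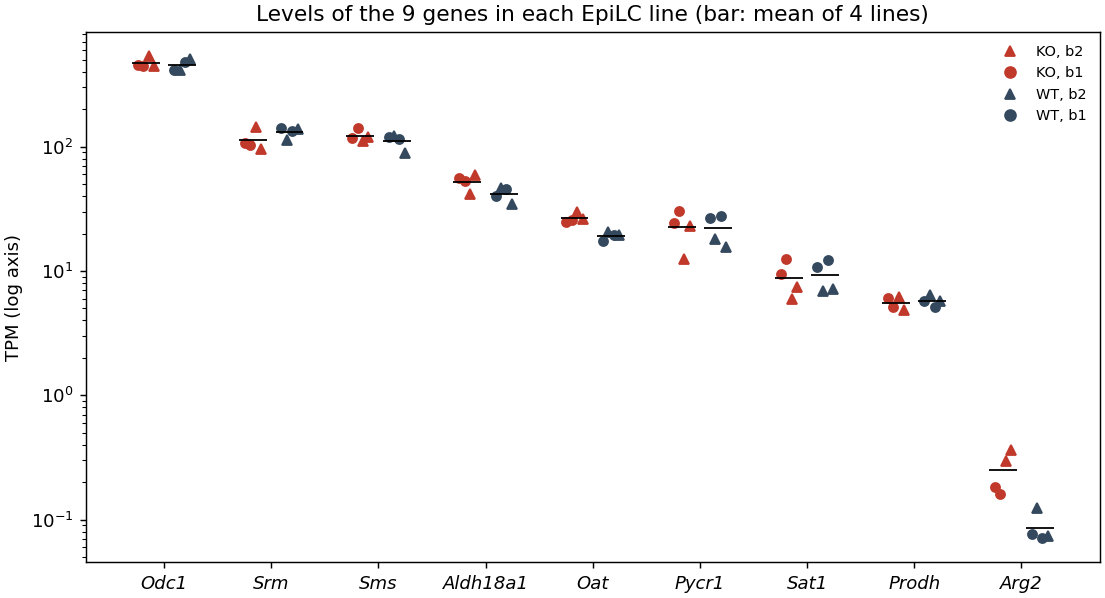
Level of each gene in each EpiLC line in TPM on a log axis, ordered by the mean over 8 lines, with KO lines left of WT lines, triangles for b2 and circles for b1, and a bar at the mean of 4 lines. *Odc1* lies between 412 and 532 TPM and *Arg2* at or below 0.364 TPM, and KO and WT points are apart for *Oat* and *Arg2*.

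*Oat* lies on chr7:132557478-132576398 on the minus strand (mm10, GENCODE M21), where the annotation also has a transcript of *Fgfr2* on the same strand, and none of the 50-base words of its transcripts was found in another gene. *Oat* had 24.7, 25.7, 30.0 and 26.4 TPM in KO1, KO9, KO15 and KO25, against 17.3, 20.4, 19.5 and 19.4 TPM in WT7, WT12, WT17 and WT34. Every KO line was above every WT line. In CPM it averaged 119.8 ± 11.0 in KO lines and 83.3 ± 5.17 in WT lines (SD, n = 4 each), a log2 difference of 0.52 (SE 0.088, edgeR). This difference was 0.53 within b2 and 0.51 within b1, where each value compares 2 KO with 2 WT lines. Leaving out each line in turn gave 0.46 to 0.56.

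The promoter of *Oat* (RefSeq, GRCm38.p6, chr7:132576349-132576648, minus strand, 250 bases before to 50 after the start of the gene) is printed with those of *Pycr1* (chr11:120643699-120643998, minus strand) and *Sat1* (chrX:155216400-155216699, minus strand), since *Oat* is the gene past the filter on low counts whose KO and WT lines did not overlap and the others are the genes that differed between b2 and b1 lines. Capitals mark matches on either strand to 4 motifs: TGATGNAA (a motif bound by ATF4), CACGTG (E-box, bound by MYC and related factors), CCAAT (bound by NF-Y) and GGGCGG (GC box, bound by SP1). Positions count from the first transcribed base, with the base before it as −1.
Oat: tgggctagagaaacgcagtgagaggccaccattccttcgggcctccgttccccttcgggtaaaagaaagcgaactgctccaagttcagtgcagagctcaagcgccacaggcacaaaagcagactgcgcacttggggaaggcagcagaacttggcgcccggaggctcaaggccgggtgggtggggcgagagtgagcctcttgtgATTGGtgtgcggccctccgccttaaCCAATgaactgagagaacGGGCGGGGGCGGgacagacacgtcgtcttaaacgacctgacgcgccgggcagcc
Pycr1: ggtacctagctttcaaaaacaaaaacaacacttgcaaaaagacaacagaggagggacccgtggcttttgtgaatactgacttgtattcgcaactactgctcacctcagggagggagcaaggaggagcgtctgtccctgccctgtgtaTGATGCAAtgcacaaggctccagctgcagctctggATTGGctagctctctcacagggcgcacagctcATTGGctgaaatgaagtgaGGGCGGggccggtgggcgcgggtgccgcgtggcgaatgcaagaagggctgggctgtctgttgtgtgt
Sat1: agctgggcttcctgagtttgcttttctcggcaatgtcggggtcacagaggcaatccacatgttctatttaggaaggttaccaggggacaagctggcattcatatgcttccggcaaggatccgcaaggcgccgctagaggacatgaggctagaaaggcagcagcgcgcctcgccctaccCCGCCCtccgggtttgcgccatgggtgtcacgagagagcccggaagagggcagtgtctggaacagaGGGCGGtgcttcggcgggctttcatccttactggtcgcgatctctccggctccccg

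In the *Oat* promoter the capitals are 2 CCAAT matches, starting at −47 and −22, and 2 GC boxes that adjoin each other across the start, at −4 and 3. The *Pycr1* promoter held 1 TGATGNAA match at −103, 2 CCAAT matches at −68 and −36, and 1 GC box at −17. That of *Sat1* held GC boxes at −72 and −6 and no match to the other motifs. Promoter sequences were matched for 7 of the 9 genes, with 2 start sites for *Sms* and none read for *Srm* and *Arg2*, and TGATGNAA occurred in that of *Pycr1* alone among the 7. An E-box occurred in the promoter of *Aldh18a1* (at −59) and in 1 of the 2 of *Sms* (at −196), that of *Odc1* held 4 GC boxes, and that of *Prodh* held no match. Matches within a promoter overlapped each other only in the second *Sms* promoter, among its 4 GC boxes. Of all 32851 RefSeq promoters of 300 bases, 3.97% held TGATGNAA, 7.15% CACGTG, 37.4% CCAAT and 35.7% GGGCGG. A match describes the letters only.

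*Aldh18a1*, which encodes the first enzyme of proline synthesis from glutamate, lies on chr19:40550257-40588463 on the minus strand. It had 55.5, 53.0, 41.3 and 58.6 TPM in KO1, KO9, KO15 and KO25, against 39.9, 46.5, 46.0 and 34.9 TPM in WT7, WT12, WT17 and WT34. The groups overlapped through KO15, which lay below WT12 and WT17. In CPM the log2 difference between KO and WT was 0.16 (SE 0.13, edgeR), with 0.10 within b2 and 0.21 within b1. On the log2(TPM + 1) scale, fitted by limma, it was 0.31. These values differ in transcript length, scaling, the added constant and the fit, and which of these moved the size was not tested.

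*Pycr1*, the next enzyme of the route, lies on chr11:120635712-120643769 on the minus strand. Its levels were 24.1, 30.6, 12.4 and 23.2 TPM in KO1, KO9, KO15 and KO25, against 26.9, 17.9, 27.9 and 15.7 TPM in WT7, WT12, WT17 and WT34. In each group the b2 lines were below the b1 lines, although KO25 (b2, 23.2 TPM) lay close to KO1 (b1, 24.1 TPM). The log2 difference in CPM between KO and WT was −0.01 (SE 0.26, edgeR), with −0.05 within b2 and −0.03 within b1. Leaving out single lines moved it between −0.16 and 0.19.

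*Prodh*, whose enzyme starts the breakdown of proline, lies on chr16:18060357-18090203 on the minus strand and overlaps *Dgcr6* on the opposite strand. It had 6.11, 5.13, 6.17 and 4.83 TPM in KO1, KO9, KO15 and KO25, against 5.69, 6.44, 5.11 and 5.72 TPM in WT7, WT12, WT17 and WT34. The groups overlapped throughout, and the log2 difference in CPM was −0.12 (SE 0.13, edgeR), with −0.05 within b2 and −0.20 within b1.

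*Arg2*, the mitochondrial arginase, lies on chr12:79130777-79156301 on the plus strand, with *Gm48780* and *Vti1b* on the opposite strand of the same region. Its estimated counts were 11, 9, 16 and 14 in KO1, KO9, KO15 and KO25, against 4, 8, 4 and 3 in WT7, WT12, WT17 and WT34. The KO counts were all above the WT counts, but on a total of 50 counts in KO lines and 19 in WT lines, and *Arg2* was the only one of the 9 genes to fail the filter on low counts. In levels it had 0.160 to 0.364 TPM in KO lines and 0.0714 to 0.124 TPM in WT lines. A fit with no filter gave a log2 difference of 1.52 (SE 0.52, edgeR), and the differences in log2 CPM were 1.61 within b2 and 1.06 within b1.

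*Odc1* lies on chr12:17544794-17551505 on the plus strand. Its levels were 450.3, 446.5, 532 and 442.8 TPM in KO1, KO9, KO15 and KO25, against 412, 413, 483 and 505 TPM in WT7, WT12, WT17 and WT34. The highest KO line was KO15 and the highest WT line WT34, both b2, and the groups overlapped. Between KO and WT the log2 difference in CPM was 0.10 (SE 0.10, edgeR), with 0.16 within b2, 0.03 within b1 and 0.02 over all lines but KO15. Of the 50-base words of its transcripts 24.3% occur in other annotated genes (11.7% in *Gm7993*), so part of its count depends on how reads were shared among copies.

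*Srm*, spermidine synthase, lies on chr4:148591503-148594993 on the plus strand. It had 107, 104, 143 and 96.5 TPM in KO1, KO9, KO15 and KO25, against 142, 113, 134 and 139 TPM in WT7, WT12, WT17 and WT34. Except for KO15, the KO lines were below every WT line in TPM. In CPM the log2 difference was −0.05 (SE 0.15, edgeR), with 0.03 within b2 and −0.15 within b1, and on the log2(TPM + 1) scale it was −0.24.

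*Sms*, spermine synthase, lies on chrX:157443855-157492287 on the minus strand. Levels were 116, 140.3, 111 and 120.1 TPM in KO1, KO9, KO15 and KO25, against 120, 122, 114 and 88.5 TPM in WT7, WT12, WT17 and WT34. WT34 was the lowest line, and the other 7 overlapped. The log2 difference in CPM was 0.13 (SE 0.11, edgeR), with 0.16 within b2, 0.12 within b1 and 0.04 over all lines but WT34. Of its 50-base words 17.4% are also in the processed pseudogene *Sms-ps*, whose words are all in *Sms*. Summed, *Sms* and *Sms-ps* had 227 ± 17.7 CPM in KO lines and 204 ± 25.3 CPM in WT lines (SD, n = 4 each). The ratio of *Srm* to *Sms* in TPM ran from 0.740 to 1.29 in KO lines and from 0.927 to 1.57 in WT lines.

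*Sat1*, the catabolic acetyltransferase, lies on chrX:155213132-155216449 on the minus strand. It had 9.45, 12.5, 5.98 and 7.48 TPM in KO1, KO9, KO15 and KO25, against 10.8, 6.84, 12.1 and 7.13 TPM in WT7, WT12, WT17 and WT34. As for *Pycr1*, the b2 lines of each genotype were below its b1 lines. The log2 difference in CPM between KO and WT was −0.13 (SE 0.25, edgeR), with −0.19 within b2 and −0.10 within b1.

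The KO and WT values chose the genes, so the following counts carry no reading. Over all genes, edgeR's quasi-likelihood test called 7 of 17272 between KO and WT in either direction (0.0405%), and 0 of the 8 genes tested here. Of these 8, *Oat* had a CPM in every KO line above that in every WT line, a pattern that 2.39% of all genes tested had. The median log2 difference of the 8 genes was 0.04 and that of all genes tested was −0.0044, with a median absolute difference of 0.13 over all genes.

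**Figure D2:**
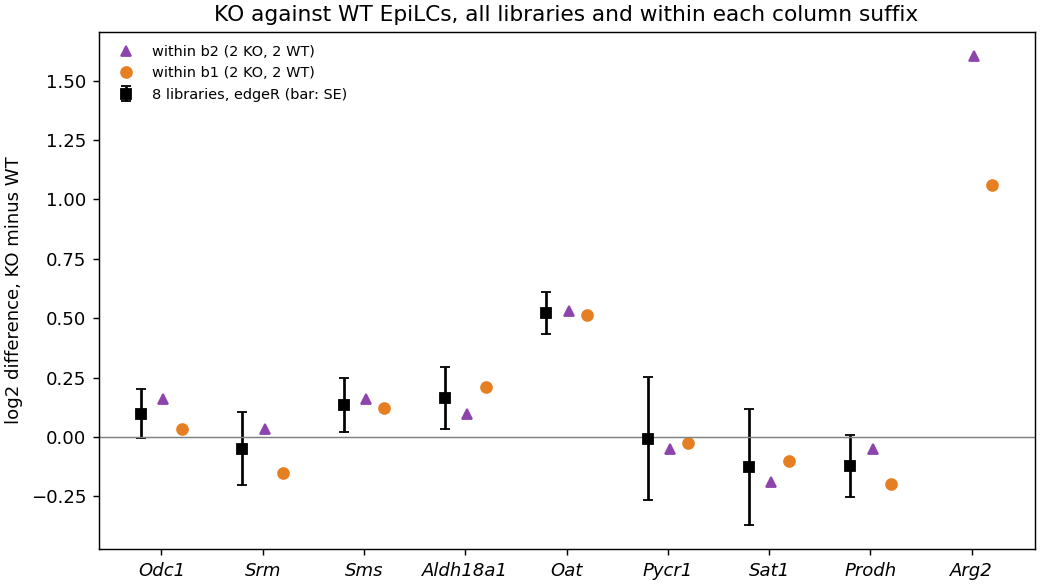
Log2 difference in CPM between KO and WT lines for each gene: squares for all 8 libraries with the SE (edgeR), triangles for the difference within b2 and circles within b1 (2 KO and 2 WT lines each). *Oat* lies at 0.52, 0.53 and 0.51, while the other tested genes lie between −0.20 and 0.21, and *Arg2*, which failed the filter, has only its within-suffix values.

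The genes with the profile most like that of *Oat* over the 8 libraries were found by the root mean square distance between log2 CPM centred on each gene's mean, among 8769 genes with a mean of at least 10 CPM. They were *Pbk* (distance 0.0908), *Dennd2a* (0.0966), *Galnt10* (0.100), *Tpm3* (0.116) and *Lrp2* (0.119), against a median distance of 0.328 over the candidates. All 5 were below their own mean in every WT line, and they follow *Oat* by construction of the search.

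**Figure D3:**
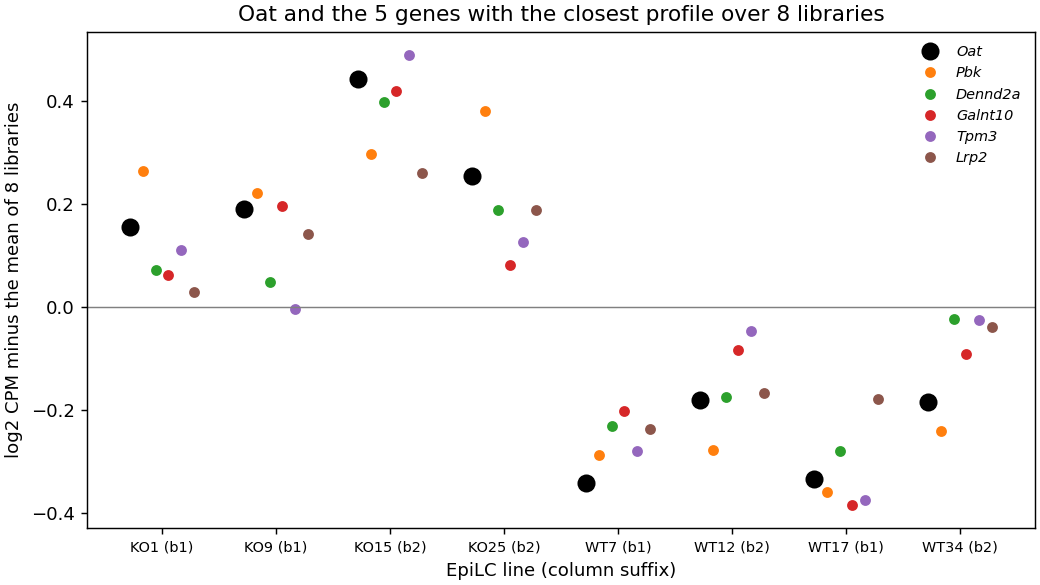
Log2 CPM minus the mean of 8 libraries for *Oat* (large black points) and the 5 genes closest to it, by line, with KO lines left of WT lines and the column suffix in brackets. *Oat* is above its mean in the 4 KO lines and below it in the 4 WT lines, and its highest point is KO15.

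The 9 genes were chosen by KO and WT values, also within b2 and b1, and not by the difference between b2 and b1 lines. Earlier results of these data were known, so the p-values of these genes may not be fully independent of the choice. Lines of b2 and b1 were compared by edgeR's quasi-likelihood test with genotype in the model. *Pycr1* and *Sat1* were lower in b2, with the same sign in KO and in WT lines. *Pycr1* had 30.9, 58.6, 46.5 and 41.8 CPM in the b2 lines KO15, KO25, WT12 and WT34, against 61.0, 72.8, 71.4 and 64.6 CPM in the b1 lines KO1, KO9, WT7 and WT17. No b2 line reached the lowest b1 line, and the log2 difference was −0.60 (SE 0.17, adjusted p = 0.0272), with −0.65 between KO lines and −0.62 between WT lines. Leaving out single lines moved the difference over all lines between −0.81 (without KO25) and −0.45 (without KO15). *Sat1* had 9.86, 13.2, 12.2 and 13.9 CPM in KO15, KO25, WT12 and WT34, against 17.1, 20.0, 20.0 and 19.6 CPM in KO1, KO9, WT7 and WT17. Again the b2 lines were all below the b1 lines, with a log2 difference of −0.65 (SE 0.12, adjusted p = 0.00474), −0.69 between KO lines and −0.60 between WT lines. The call of *Pycr1* was lost without KO9, WT7, WT17 or WT34 (adjusted p = 0.0532 to 0.0838) and that of *Sat1* held without any one line (adjusted p = 0.0051 to 0.0219). Fits within KO or within WT lines alone, 2 against 2, called neither, and limma on log2(TPM + 1) did not call *Pycr1* (adjusted p = 0.0774).

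These were 2 of the 8 genes tested, and of all 17272 genes 24.6% were called in either direction, a like share, with 11.0% lower in b2 (1894 genes) and 13.7% higher (2359 genes). Without TMM, by library size alone, that split was 2511 lower and 1933 higher, and *Pycr1* and *Sat1* were called as well. Likewise 12.4% of all genes tested had every b2 line below every b1 line, as 2 of the 8 did. Over the 8 genes the median log2 difference between b2 and b1 was −0.14, against 0.01 over all genes tested, and 5 had an unadjusted p under 0.05, as did 37.8% of all genes tested. *Oat* was 0.17 higher in b2 on the log2 scale (SE 0.061, adjusted p = 0.0727), *Aldh18a1* stood at −0.25 (SE 0.095, adjusted p = 0.0838) and *Sms* at −0.21 (SE 0.085, adjusted p = 0.108), none of which passed. *Odc1* (0.07), *Srm* (−0.07) and *Prodh* (−0.05) had differences smaller than their standard errors (0.094, 0.15 and 0.12). Summed feeder fibroblast markers were 5.45 to 17.3 TPM in b2 lines and 19.9 to 29.9 TPM in b1 lines, also without overlap, and their part in the levels of *Pycr1* and *Sat1* was not tested.

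Of 5 ratios of TPM computed within each line, 2 did not overlap between b2 and b1 lines. Both divide by *Pycr1* or *Sat1*, whose own TPM did not overlap between b2 and b1 lines, so they restate that difference. Among all genes tested, 19.8% had TPM that did not overlap between b2 and b1 lines. The share over all pairs of genes was not computed. The ratio of *Oat* to *Pycr1* in TPM was 1.14 to 2.42 in b2 lines and 0.643 to 1.02 in b1 lines, so *Oat* was above *Pycr1* in every b2 line. The ratio of *Odc1* to *Sat1*, synthesis against catabolism of polyamines, was 59.2 to 89.0 in b2 lines and 35.9 to 47.7 in b1 lines. The ratio of *Aldh18a1* to *Pycr1* was 2.22 to 3.33 in b2 lines and 1.48 to 2.30 in b1 lines, which overlapped. The ratios of *Oat* to *Aldh18a1* (0.439 to 0.727 in b2 lines and 0.424 to 0.486 in b1 lines) and of *Srm* to *Sms* (0.803 to 1.57 in b2 lines and 0.740 to 1.2 in b1 lines) overlapped as well. A test of whether the difference between KO and WT itself differed between b2 and b1 (the interaction term, edgeR) called 0 of 17272 genes (0%), 227 of which had an unadjusted p under 0.05 (1.31%), and 0 of the 8 genes here, none of which did. DESeq2 called 0 of these 8 genes as well. KO and WT values, also within b2 and b1, chose the genes, so nothing is read from these counts of the 8. The interaction estimates for *Oat* and *Pycr1* were 0.02 (SE 0.13) and 0.04 (SE 0.35), and with 2 lines in each combination of genotype and suffix the error for *Pycr1* was wide.

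Other genes of the pathways were taken from 6 lists. Between KO and WT edgeR called 0 of 71 listed genes tested, 4 of which had an unadjusted p under 0.05, as did 5.62% of all genes tested. With the suffix as a block it called 0 (0.162% of all genes), and DESeq2 called 2 (0.660% of 15919 genes). The lists were chosen with earlier results of these data known. Nothing is therefore read from these counts or from KO and WT calls of single listed genes below, which are given as a description. In b2 against b1 the counts of each list stand beside the 13.7% of all genes called higher and 11.0% called lower, and nothing particular to a list is read from them. In b2 against b1 the enzymes of proline and glutamate metabolism had 0 of 13 higher and 4 of 13 lower, among them *Gls2* (−0.60, SE 0.10), which releases glutamate from glutamine, the aspartate aminotransferase *Got1* (−0.35, SE 0.068), and *Pycrl*, a relative of *Pycr1*. In KO against WT the smallest p-values of this list belonged to the prolyl hydroxylase subunit *P4ha1* (0.35, SE 0.18), the glutamine synthetase *Glul* (0.19, SE 0.10) and the dipeptidase *Pepd* (−0.18, SE 0.10), none of which passed.

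Of the arginine and ornithine genes, 10 of 16 were tested, and *Asl*, which releases arginine in the urea cycle, was the 1 gene lower in b2 (−0.38, SE 0.071, adjusted p = 0.00487), with 0 higher. The arginine transporter *Slc7a1* stood at 0.41 (SE 0.13, adjusted p = 0.0524) and *Nos1*, a nitric oxide synthase, at −0.27 (SE 0.10), and neither passed. In KO against WT the arginine transporters *Slc7a3* and *Slc7a2* had log2 differences of 0.32 (SE 0.088) and 0.56 (SE 0.24) and the argininosuccinate synthase *Ass1* one of −0.25 (SE 0.12), with unadjusted p-values under 0.05 for 2 of the 10 and no call.

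Among polyamine enzymes and regulators, 13 of 15 were tested, and 3 were higher and 3 lower in b2. *Amd1*, whose enzyme makes the aminopropyl donor that SRM and SMS use, was 0.64 higher on the log2 scale (SE 0.089, adjusted p = 0.00125), *Azin1*, an inhibitor of the antizymes that turn over ODC1, was 0.34 higher (SE 0.057), and the lysosomal polyamine exporter *Atp13a2* stood at −0.51 (SE 0.091). The remaining calls were *Oaz2* (an antizyme), *Paox* (a polyamine oxidase) and *Sat2*. In KO against WT *Amd2* had −3.81 (SE 0.75), called by DESeq2 and not by edgeR, but 85.7% of its 50-base words are shared with other genes, above all *Amd1*, so its value is uncertain. Summed, *Amd1* and *Amd2* had 224 ± 66.6 CPM in KO lines and 223 ± 52.0 CPM in WT lines (SD, n = 4 each). *Amd2* alone had 0.487 ± 0.717 CPM in KO lines and 7.22 ± 1.49 CPM in WT lines, less than the SD of the sum. The sums therefore cannot show whether reads were split differently between *Amd1* and *Amd2*. *Amd2* (chr10:35708675-35711892) also lies on the chromosome of *Tet1* (chr10:62804570-62908996). Any part of that position in its KO and WT values was not tested. *Slc18b1*, a vesicular polyamine transporter, had 0.33 (SE 0.20) and the amino acid transporter chain *Slc3a2* 0.14 (SE 0.089) in the same comparison.

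Methionine salvage recycles the by-product of SRM and SMS, and hypusination modifies the factor EIF5A with spermidine. Of 11 such genes tested, *Mat2a*, which makes S-adenosylmethionine, was 1.11 higher in b2 on the log2 scale (SE 0.16, adjusted p = 0.00145), the salvage enzyme *Mri1* was the 1 gene lower (−0.38, SE 0.11, adjusted p = 0.035), and *Adi1* stood at −0.20 (SE 0.10). In KO against WT *Mtap*, the first salvage enzyme, had 0.37 (SE 0.087), called by DESeq2 and not by edgeR, while *Dhps* and *Dohh*, the hypusination enzymes, had 0.15 (SE 0.12) and −0.11 (SE 0.12).

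ATF4 is a transcription factor of the amino acid stress response that is known to drive *Pycr1* and *Aldh18a1*. Of 15 such genes tested, 2 were higher and 5 lower in b2, with a median log2 difference of −0.24, against 0.01 over all genes tested. *Ddit3*, a stress-induced transcription factor gene, stood at −2.61 (SE 0.25, adjusted p = 0.000222) and *Phgdh*, the first enzyme of serine synthesis, at −0.48 (SE 0.090), whereas *Sesn2*, a stress-induced regulator of mTORC1, was 0.57 higher (SE 0.085). *Atf4* itself stood at −0.31 (SE 0.13, adjusted p = 0.115, edgeR) and did not pass. The part of ATF4 in the level of *Pycr1* was not tested. Of 9 genes of MYC and its partners, whose known targets include *Odc1*, 3 were higher and 0 lower in b2: *Myc* (2.67, SE 0.23), *Mycn* (1.50, SE 0.11) and *Mnt* (0.83, SE 0.073). In the same libraries the difference of *Odc1* was 0.07 (SE 0.094) and that of *Srm* −0.07 (SE 0.15). Whether the MYC factors bear on these levels was not tested. In KO against WT the smallest p-values of these lists were those of *Shmt2* (0.19, SE 0.10), *Atf4* (0.18, SE 0.17) and *Ddit4* (−0.33, SE 0.32), and of *Mxd1* (−0.42, SE 0.19), *Mnt* (−0.35, SE 0.28) and *Mycl* (0.11, SE 0.17), none of which passed.

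**Figure D4:**
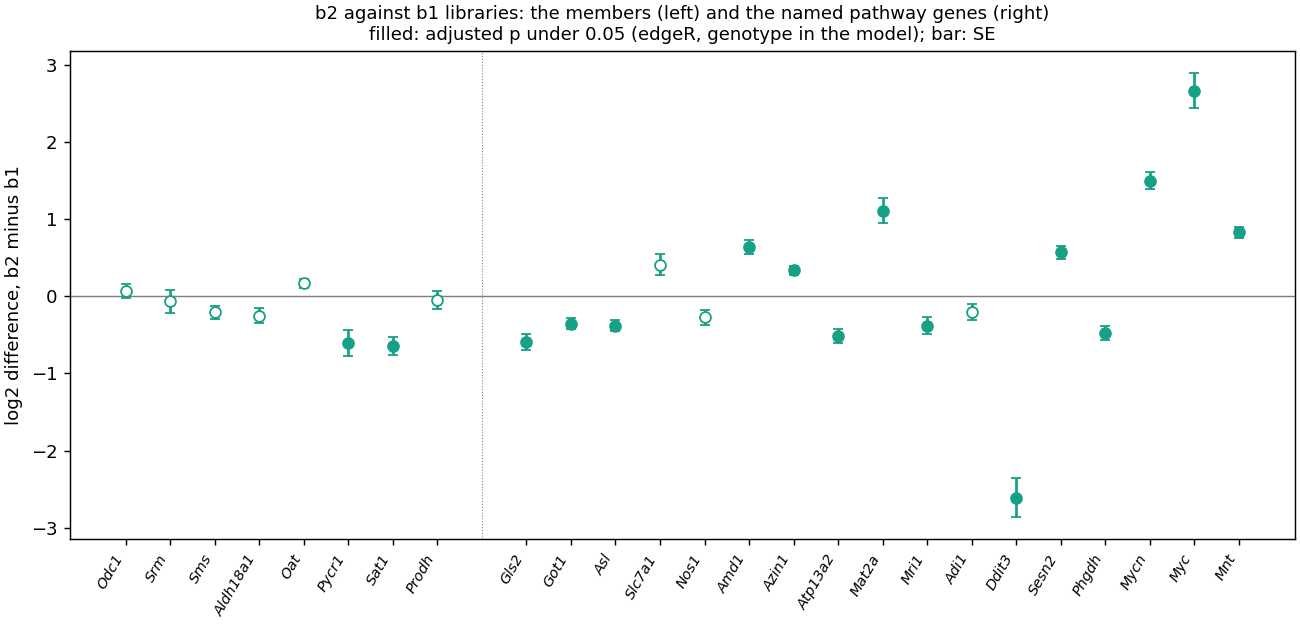
Log2 difference in CPM between b2 and b1 lines with its SE (edgeR, genotype in the model) for the 8 tested genes on the left and named genes of the 6 lists on the right, filled where the adjusted p is under 0.05. *Pycr1* (−0.60) and *Sat1* (−0.65) are the filled points on the left, and *Ddit3* (−2.61) and *Myc* (2.67) are the extremes on the right.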

How the data were processed

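Per the methods and the submitters' processing notes, trimming was done by the authors with Trim Galore 0.6.4, transcript quantification with Salmon 0.14.1 (mm10) and gene summaries in R 4.0.2. They deposited estimated counts and TPM of the same libraries, with no column of another series. Rounding of estimated counts to integers moved 27.8% of values by at most 0.5. In R 4.3.3, edgeR 4.0.16 kept 17272 genes (filterByExpr), normalized them by TMM and applied its quasi-likelihood test at a Benjamini-Hochberg adjusted p of 0.05, without covariates for KO against WT and with genotype for b2 against b1. CPM are TMM-scaled, with 1 CPM standing for 13.7 to 24.0 estimated counts, and log2 CPM of single groups used a prior count of 1. DESeq2 1.42.0, limma 3.58.1 on log2(TPM + 1) and log2(TPM + 0.1) of genes with a mean of at least 1 TPM, other filters and normalizations, the suffix as a block, each suffix or genotype alone and each line left out were alternatives. The fits were tested on simulated data.

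The members and lists were chosen with earlier results of these data known. Named genes are *Tet1*, the 9 genes, the 3 with the smallest p per list in each comparison and the 5 closest to *Oat* (without predicted genes and pseudogenes), except 1 listed gene that is not reported here. Other genes called in a list (*Pycrl*, *Oaz2*, *Paox* and *Sat2*) were named after their values were seen. Whether lines of 1 group are separate animals beyond being separate ESC lines is not stated for each, and p-values measure the spread between lines. Positions are from GENCODE M21, in which 53544 of 54281 gene IDs with versions were found, all 9 genes among them. Words shared between genes were counted over its transcripts. Promoters are from RefSeq.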

Additional observations from a re-analysis of the deposited data

Results flagged for a closer look

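In 2 of 18 groups of 4 lines (9 genes, KO and WT), 1 line lay far from the other 3 in CPM. The nominal rate is 5% for independent groups with normal values, but these groups reuse the same libraries. The share over all genes was not computed, so nothing about these genes is read from this count. KO15 had 1213 CPM of *Odc1*, against 985 to 1007 CPM in the other KO lines, and its gap to them was 0.902 of the group's whole range. WT34 had 134 CPM of *Sms*, against 178 to 186 CPM in the other WT lines, with a gap of 0.846 of the range. Both are past the 95% critical value of Dixon's test for 4 samples. Without KO15 the log2 difference of *Odc1* between KO and WT was 0.02, and without WT34 that of *Sms* was 0.04.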

How the results depend on the processing

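Between KO and WT, 5 genes were called higher and 2 lower, against 68 and 37 by DESeq2, 20 and 8 with the suffix as a block, 14 and 5 in b1 alone and 1 and 4 in b2 alone. At least 10 counts in every library gave 1 lower, and limma on log2(TPM + 1) and log2(TPM + 0.1) gave 0 and 1 higher. Leaving out 1 line gave 4 to 7 higher and 2 to 5 lower (5 without WT17). Of the 8 genes, which KO and WT values chose, 0 were called, against 1 by DESeq2 and 1 with the block, counts from which nothing is read. DESeq2 called 2 listed genes, from lists that were also chosen with earlier results known. The difference of *Oat* kept its sign under all 18 alternatives run (0.46 to 0.56), and *Pycr1*, *Srm* and *Sat1* kept theirs under 11, 16 and 17 of 18. As KO and WT values chose the genes and the alternatives reuse the same libraries, nothing is read from these signs either.

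Between b2 and b1, 2359 genes were called higher and 1894 lower, against 778 and 617 by limma on log2(TPM + 1), 742 and 579 on log2(TPM + 0.1), 722 and 292 in KO lines alone and 207 and 64 in WT lines alone. Leaving out 1 line gave 1493 (without KO9) to 2477 higher and 1118 (without WT7) to 2330 lower, where the lone line of a group is assumed to vary like the others. Of the 8 genes 2 were called, 4 with no filter (*Aldh18a1*, −0.28, and *Sms*, −0.23, added), 1 under both limma settings, 0 in KO or WT lines alone, and 1 to 4 without 1 line. *Pycr1* was lost under limma (−0.66 and −0.69), without KO9 (−0.57), WT7 (−0.57), WT17 (−0.65) or WT34 (−0.57), and in KO (−0.59) and WT lines alone (−0.63), and *Sat1* in KO (−0.69) and WT lines alone (−0.61). Signs turned only for small differences. *Prodh* had 0.057 and 0.066 under limma, 0.032 in KO lines alone, and −0.12 (without KO15) to 0.0027 (without WT12) leaving out 1 line, with 0.00062 without WT7. *Srm* had 0.0095 and 0.0096 under limma, 0.040 in KO lines alone, and −0.24 (without KO15) to 0.039 (without KO25) leaving out 1 line, with 0.026 without WT12. *Odc1* had −0.0039 (without KO15) to 0.14 (without WT12) leaving out 1 line. The causes of these changes were not tested.

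No paired analysis was possible because KO and WT lines share no replicate numbers and the sources do not say which lines were littermates. Depth limits *Arg2* most, with at most 16 estimated counts in a library. Estimated counts split between *Sms* and *Sms-ps*, among copies of *Odc1*, and between *Amd1* and *Amd2* depend on the quantification.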
